A study of Homo sapiens with 12 samples.

Results

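The cadherin superfamily outside the clustered protocadherins was examined in differentiating SH-SY5Y cells, together with the catenins that bind its classical members. Gene symbols were chosen by name from the 55765 symbols counted in the series: CDH or PCDH followed by a number (with or without a closing X for PCDH), CELSR1 to CELSR3, FAT1 to FAT4, DCHS1, DCHS2, CTNNA1 to CTNNA3, CTNND1 and CTNND2. This gave 49 members: 5 classical type I cadherins, 13 classical type II cadherins, 5 other cadherins, 4 delta-1, 5 delta-2 and 3 other protocadherins, 6 Fat and Dachsous genes, 3 Celsr genes and 5 catenins.

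The study asked how oxidative stress affects gene expression while neuroblastoma cells become neuron-like. SH-SY5Y is a cloned human neuroblastoma line derived from SK-N-SH, which was grown from bone marrow, and all groups received all-trans retinoic acid (ATRA) for 7 days. In the co-treatment experiment, 3 control libraries received ATRA alone and 3 treated libraries received hydrogen peroxide (H2O2) together with it. In the pre-treatment experiment, 3 control libraries received ATRA alone and 3 treated libraries were exposed to H2O2 72 h before ATRA was added. The H2O2 concentration is 10 mM in the deposited description and 10 μM in the study's methods.

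Classical cadherins are calcium-dependent adhesion proteins whose extracellular repeats bind cadherins on the neighbouring cell, while their tails bind p120-catenin (CTNND1) and, through beta-catenin, alpha-catenin (CTNNA1 to CTNNA3) and actin. CDH1 (E-cadherin) is typical of epithelia, and CDH2 (N-cadherin) and CDH11 (OB-cadherin) are typical of neural and mesenchymal cells. Non-clustered protocadherins bind more weakly and guide axon growth and circuit formation, Fat and Dachsous proteins form a receptor-ligand pair in tissue polarity and growth control, and Celsr proteins are seven-pass cadherins of the core planar cell polarity pathway.

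The libraries held 27576276 to 98287391 reads on genes, of which members took 0.156% to 0.332%. Pre-treatment control replicates 1 and 2 stood apart from control replicate 3: they carried 0.800 and 0.830 reads outside genes per read on a gene, against 0.200 in replicate 3, and 1.59% and 2.88% of their gene reads fell on small RNA genes, against 17.6%. The 3 pre-treated libraries lay between, at 0.343 to 0.462 reads outside genes and 13.3% to 15.1% small RNA. Pre-treatment values are given over all 6 libraries and over the 5 that leave out control replicate 3. That library was already known from earlier results of these data to stand apart when the 5 were chosen. The labels do not state whether replicates came from separate cultures, so the p-values measure the spread between these libraries, which may be technical. Noradrenergic neuroblastoma markers were abundant. Their summed level was 2159 to 3086 CPM (counts scaled to the library total) in co-treatment controls, 1633 to 2247 CPM in co-treated, 2168 to 3247 CPM in pre-treatment controls and 1391 to 1806 CPM in pre-treated libraries, although TH, the enzyme that starts catecholamine synthesis, was at 0.0104 to 0.263 CPM.

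Levels were compared between members as RPKM (CPM per kilobase of exon), averaged over the 12 libraries. 16 members exceeded 1 RPKM, 4 lay between 0.1 and 1, and 29 were at or under 0.1. The 16 supplied at least 98.9% of the members' reads in every library.

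Among the members that are classical cadherins or catenins, CTNNA1 (alpha-E-catenin, which couples cadherins to actin) had the most RNA, at 33.6 RPKM. CDH2 was next at 25.6 RPKM. CTNND1 followed at 15.2 RPKM, CTNNA2 (the neuronal alpha-catenin) at 14.1 RPKM and CDH11 at 13.1 RPKM. Over the 4 groups, CTNNA2 had means of 13.2 to 14.7 RPKM and CTNND1 of 12.01 to 19.3 RPKM, so that these neighbours in the order overlapped. CDH11 and CDH24, at 5.85 RPKM, were the only type II cadherins above 1 RPKM, and the other 11 had fewer than 30 reads in every library. CDH9 had no read in any library, which allows a level of up to 3 reads of the library total in each. CDH1 had 0 to 13 reads per library, and CTNND2 had no more than 2.

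Among the larger relatives, DCHS1 (a ligand for Fat proteins) was at 24.6 RPKM, more than CELSR3 at 16.8 RPKM and CELSR2 at 5.26 RPKM. FAT1 had 2.86 RPKM and FAT4, the Fat protein that binds DCHS1, had 2.03 RPKM. FAT2 was at 0.160 RPKM and FAT3 at 0.0786 RPKM. The leading protocadherins were PCDH17 at 12.4 RPKM and PCDH18 at 6.87 RPKM, both of the delta-2 group, which can recruit actin regulators, and PCDH1 at 5.56 RPKM and PCDH9 at 3.47 RPKM of the delta-1 group. PCDH12 led the remaining protocadherins at 0.709 RPKM, and CDH23, known from the tip links of hair cells, led the other cadherins at 0.236 RPKM. PCDH20 was the fourth member between 0.1 and 1 RPKM, at 0.157 RPKM.

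**Figure D1:**
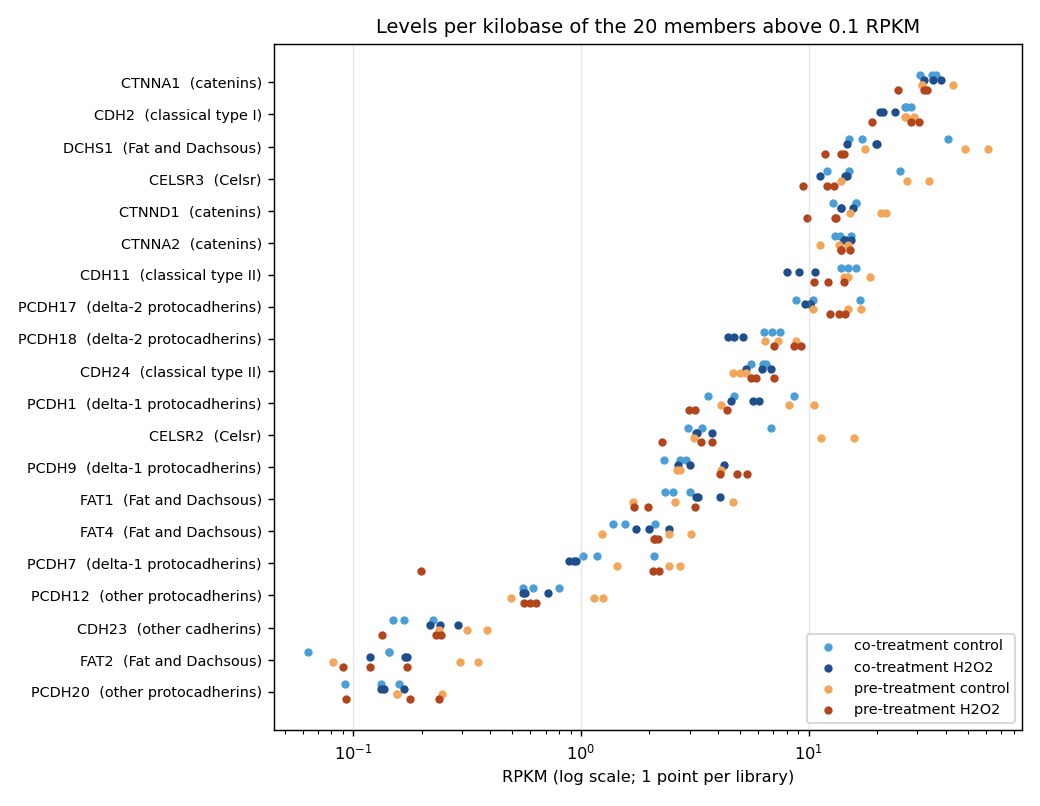
RPKM on a log axis for the 20 members above 0.1 RPKM, with 1 point per library coloured by group and members ordered by their mean over 12 libraries. CTNNA1 and CDH2 lead with little scatter, whereas DCHS1, CELSR3, CELSR2 and PCDH1 have pre-treatment control libraries far to the right of the rest, and 1 pre-treated library of PCDH7 lies far to the left.

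In RefSeq's table of promoter windows (GRCh38.p14, 250 bases before to 50 bases after a transcript start), 31 of the 49 members had 53 windows. The windows of 4 of the 5 members that were called lower after pre-treatment are shown, because these genes had high values in the same control libraries. Capitals mark GGGCGG, the GC box bound by Sp factors, or its reverse complement. The windows are CELSR2 at chr1:109249289-109249588 (plus strand), CELSR3 at chr3:48662837-48663136, PCDH1 at chr5:141869578-141869877 and FAT2 at chr5:151591282-151591581 (all minus strand), each written 5′ to 3′.
CELSR2: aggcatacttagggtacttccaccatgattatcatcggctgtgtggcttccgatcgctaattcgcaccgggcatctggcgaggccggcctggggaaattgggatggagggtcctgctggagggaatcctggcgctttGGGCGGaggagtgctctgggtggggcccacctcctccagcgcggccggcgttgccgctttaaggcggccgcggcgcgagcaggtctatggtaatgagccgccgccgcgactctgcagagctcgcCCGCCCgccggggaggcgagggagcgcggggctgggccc
CELSR3: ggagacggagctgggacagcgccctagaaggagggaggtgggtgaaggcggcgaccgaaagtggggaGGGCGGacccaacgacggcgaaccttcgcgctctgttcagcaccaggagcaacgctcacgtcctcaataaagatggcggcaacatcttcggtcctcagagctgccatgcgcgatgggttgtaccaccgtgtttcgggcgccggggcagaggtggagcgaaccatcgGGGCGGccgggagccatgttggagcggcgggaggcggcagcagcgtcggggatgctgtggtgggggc
PCDH1: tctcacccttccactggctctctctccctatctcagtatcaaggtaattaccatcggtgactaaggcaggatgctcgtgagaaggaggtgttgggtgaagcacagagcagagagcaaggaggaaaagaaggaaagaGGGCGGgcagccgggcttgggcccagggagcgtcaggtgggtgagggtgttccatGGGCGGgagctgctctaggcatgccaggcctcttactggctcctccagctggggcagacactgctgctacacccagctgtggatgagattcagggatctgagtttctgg
FAT2: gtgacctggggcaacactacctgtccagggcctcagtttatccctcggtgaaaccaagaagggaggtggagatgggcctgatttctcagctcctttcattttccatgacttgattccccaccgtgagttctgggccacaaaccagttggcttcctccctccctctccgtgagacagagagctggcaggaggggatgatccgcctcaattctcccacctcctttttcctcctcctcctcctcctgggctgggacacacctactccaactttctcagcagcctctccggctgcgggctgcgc

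GGGCGG occurred 2 times in each of the CELSR2, CELSR3 and PCDH1 windows and not in the FAT2 window. On either strand, 45% of the 35116 windows in the table held it, as did 19 of the 53 member windows. The other motifs searched were CACCTG (20.6% of all windows, 4 of the 53), CACGTG (7.26%, 1 of the 53), AGGTCA (the core site of retinoic acid receptors, 13.8%, 4 of the 53), TATAAA (11.5%, 7 of the 53) and TGACNNNGC (the core of the antioxidant response element, 13.3%, 3 of the 53). None of the 6 motifs contains another. The PCDH1 window held CACCTG 1 time, the FAT2 window held AGGTCA 1 time, and no other of these 5 motifs occurred in the 4 windows. G and C made up 68% of the CELSR2 window, 67% of the CELSR3 window and 58% of each of the others, against a median of 58.7% over all windows.

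After co-treatment 1 member fell, CDH11 (chr16:64977656-65160015 on hg19). Its levels were 215, 197 and 184 CPM in the 3 controls and 142, 121 and 107 CPM in the 3 co-treated libraries. All controls lay above all treated libraries, and the log2 fold change (log2FC, treated minus control) was −0.69 ± 0.14 (SE; edgeR quasi-likelihood FDR = 0.0465). CDH11 was 1 of 28 members tested, while 132 of 22089 genes (0.598%) were called at an FDR under 0.05 with an absolute log2FC over 0.6. The call lay near the threshold: it was lost without control replicate 2 (FDR = 0.187), control replicate 3 (0.0520), treated replicate 2 (0.182) or treated replicate 3 (0.428), although the log2FC stayed between −0.80 and −0.60. It was also lost with library sizes alone (FDR = 0.130) and in 1 fit over both experiments (0.299).

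CDH2, the other abundant classical cadherin, was at 241, 228 and 230 CPM in the controls and 206, 176 and 183 CPM after co-treatment. These groups did not overlap either, but the log2FC of −0.31 ± 0.12 did not pass the test (edgeR FDR = 0.485). For each read of CDH2 there were 0.801 to 0.892 reads of CDH11 in the co-treatment controls and 0.585 to 0.690 in the treated libraries. This ratio was chosen after the values were seen and was not tested. In the pre-treatment experiment it was 0.835 to 0.989 in the controls and 0.531, 0.673 and 1.16 in the treated libraries, which overlap.

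PCDH18 gave 42.7, 50.03 and 45.9 CPM in the co-treatment controls and 34.6, 29.5 and 31.3 CPM in the treated libraries (log2FC = −0.54 ± 0.12, edgeR FDR = 0.0951). PCDH7, a delta-1 protocadherin, had a log2FC of −0.63 ± 0.23 (edgeR FDR = 0.439), with 27.0, 15.2 and 13.2 CPM in the controls and 11.4 to 12.3 CPM after treatment. FAT1, a giant cadherin involved in cell migration, lay on the other side of 0 at 0.42 ± 0.14 (edgeR FDR = 0.375). In these 3 genes the groups did not overlap, and none passed the threshold on FDR in edgeR's quasi-likelihood test over all 6 libraries with the filter on low counts. PCDH18 passed it with edgeR's exact test (FDR = 0.0233), with DESeq2 (0.0217), without the filter on low counts (0.0233, where PCDH7 also passed and was called, at 0.0214) and without control replicate 1 (0.0373). Its log2FC did not reach the fold threshold in these 4 settings. Without control replicate 1 the log2FC of PCDH7 was −0.25 (edgeR FDR = 0.664).

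Across the co-treatment, groups did not overlap in 7 of 28 members, against 13.9% of all genes tested, and 5 members had an unadjusted p under 0.05, as did 1801 of the 22089 genes. The members were evenly divided, with 14 higher and 14 lower and a median log2FC of −0.02, against 0.00 over all genes. Among the catenins, CTNNA1 had a log2FC of 0.05 ± 0.13 and CTNND1 one of −0.05 ± 0.13. Of the genes below the filter, CDH1 had 13, 7 and 6 reads in the controls and 1, 1 and 3 reads in the treated libraries.

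DCHS1, CELSR2, CELSR3 and PCDH1 had 1 high library each among the co-treatment controls, and it was the same one. Control replicate 1 gave 439 CPM for DCHS1, against 184 and 162 CPM in the other two and 159 to 215 CPM in the treated libraries. For CELSR2 it gave 87.9 CPM, against 43.5 and 37.7 CPM in the other two controls. Without that library, the co-treatment log2FC of DCHS1 went from −0.42 to 0.18 and that of CELSR2 from −0.37 to 0.10. Control replicate 1 also had the highest reads outside genes among the co-treatment controls, at 0.370, and the lowest small RNA share among them, at 5.31%. For reads outside genes the treated libraries did not follow this order. Treated replicate 2 had the most among them, at 0.429, with DCHS1 at 159 CPM, the lowest treated value. For small RNA they followed it in part. Treated replicate 2 had the highest share among them and the lowest level of all 4 genes. Treated replicate 1 had the lowest share, at 5.04%, and the highest PCDH1 and CELSR3 among them. CELSR2 and, narrowly, DCHS1 were highest in treated replicate 3. With a small RNA share near that of control replicate 1, treated replicate 1 had DCHS1 at 214 CPM, against 439 CPM. The part of these library properties in the values was not tested.

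**Figure D2:**
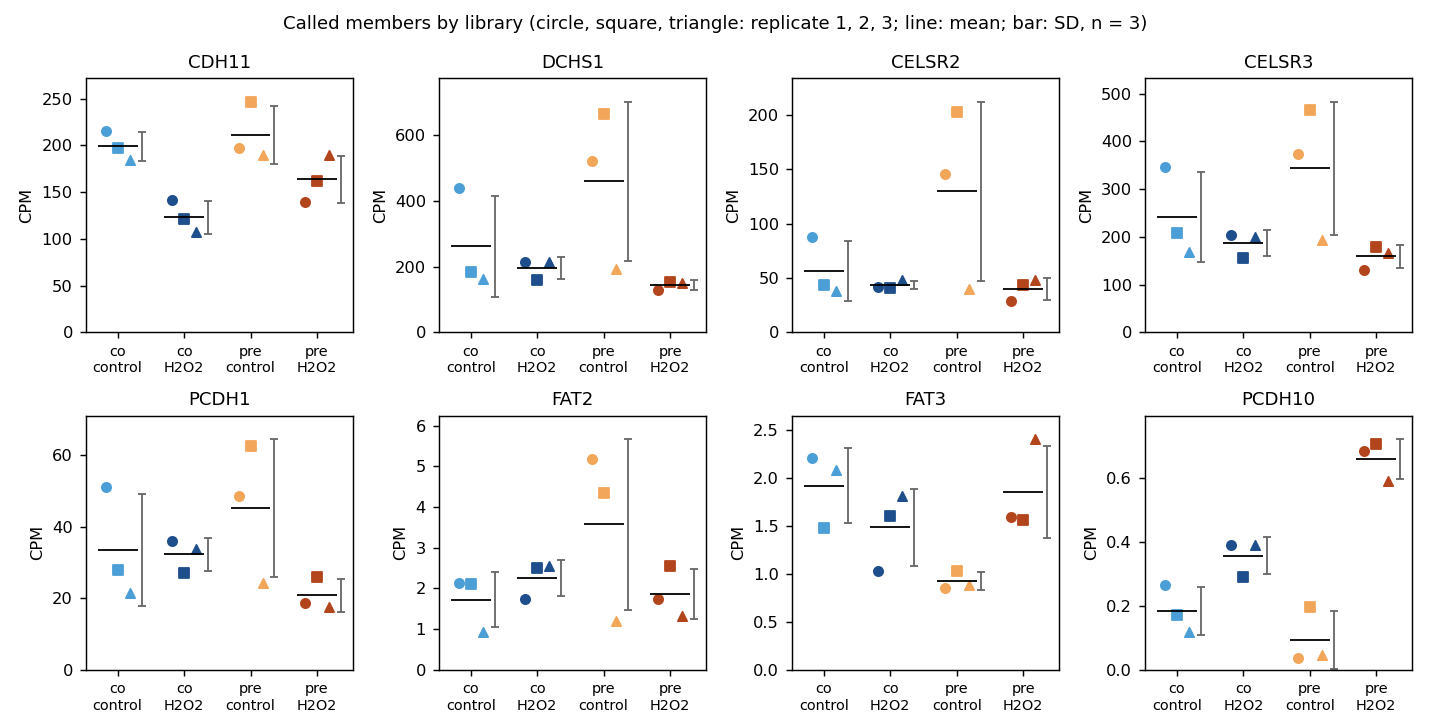
CPM by library for the 8 members called in the co-treatment or the pre-treatment comparison, with circles, squares and triangles for replicates 1, 2 and 3, a line at each mean and a bar for the SD (n = 3). CDH11 separates the co-treatment groups, while in DCHS1, CELSR2, CELSR3, PCDH1 and FAT2 control replicates 1 and 2 of the pre-treatment stand above control replicate 3, which lies near the treated libraries.

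After pre-treatment no member passed the test when all 6 libraries were used. edgeR's quasi-likelihood test called 0 of 33 members at an FDR under 0.05 with an absolute log2FC over 1, and 6 of 24743 genes (0.0242%). At an unadjusted p under 0.05 there were 8 members and 2776 genes. On the same libraries edgeR's exact test called DCHS1 and PCDH10, DESeq2 called those 2 with CELSR2, CELSR3 and PCDH1, and limma-voom called 0. The groups of 3 did not overlap in 7 of the 33 members, among them DCHS1, CELSR3, CTNND1, FAT3 and PCDH10, against 16.4% of all genes.

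Without control replicate 3, 7 of 34 members were called, 5 lower and 2 higher after pre-treatment. This was 20.6% of the members tested, beside 11.2% of all 26350 genes tested (2952 genes). By direction, 8.23% of all genes were called lower and 2.98% were called higher. The members' median log2FC was −0.13, against 0.01 over all genes. The calls rest on 2 controls, which are the libraries with the most reads outside genes, and the part of that difference in the values was not tested.

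DCHS1 (chr11:6642561-6677040) had the smallest FDR among the members over 5 libraries. Its levels were 522, 664 and 191 CPM in the 3 pre-treatment controls and 127, 154 and 150 CPM in the treated libraries. Control replicate 3 lay above all treated libraries but far nearer to them than to the other controls. The log2FC was −1.64 ± 0.39 over 6 libraries (edgeR FDR = 0.320) and −1.97 ± 0.14 over 5 (edgeR FDR = 0.000618), a level 3.93-fold higher in the controls. An antisense gene, DCHS1-AS1, overlaps its exons, and whether counting used strand is not given in the sources used here. Genes on the other strand also overlap exons of FAT2, CTNNA1, CDH1, CDH2, CDH23, PCDH7, PCDH12, PCDH17 and other members.

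The Celsr genes, which pass planar polarity signals between neighbouring cells and steer axon tracts, had the same shape. CELSR2 (chr1:109792161-109818373) was at 146, 203 and 40.2 CPM in the controls and 29.1, 43.2 and 48.2 CPM after pre-treatment. Control replicate 3 fell inside the treated range, and the log2FC was −1.65 ± 0.50 over 6 libraries (edgeR FDR = 0.320) and −2.05 ± 0.22 over 5 (0.00107). CELSR3 (chr3:48673896-48700319) was at 374, 467 and 193 CPM in the controls and 131, 179 and 167 CPM in the treated libraries. Its control replicate 3 stayed above the treated libraries, and the log2FC was −1.08 ± 0.30 over 6 libraries (edgeR FDR = 0.320) and −1.33 ± 0.16 over 5 (0.00157). CELSR1, the remaining gene of the group, was far lower, at 0.0639 RPKM, and was not called in either fit.

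PCDH1 (chr5:141232655-141258811), a delta-1 protocadherin found at neuronal and airway cell contacts, had 48.5, 62.7 and 24.4 CPM in the controls and 18.7, 26.1 and 17.6 CPM after pre-treatment. Its log2FC was −1.08 ± 0.32 over 6 libraries (edgeR FDR = 0.320) and −1.35 ± 0.19 over 5 (0.00311). FAT2 (chr5:150883653-150970892) had 5.19, 4.34 and 1.20 CPM in the controls and 1.74, 2.54 and 1.33 CPM in the treated libraries. In both genes control replicate 3 lay within or below the treated range. For FAT2 the log2FC was −0.89 ± 0.51 over 6 libraries (edgeR FDR = 0.547) and −1.28 ± 0.29 over 5 (0.0158).

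Of the 2 members called higher, PCDH10 (chr4:134070449-134129761), a delta-2 protocadherin linked to axon outgrowth and synapse elimination, separated the groups in all 6 libraries. It had 2, 9 and 3 reads in the controls and 66, 48 and 47 reads in the treated libraries, or 0.0363, 0.197 and 0.0457 CPM against 0.684, 0.705 and 0.588 CPM. The log2FC was 2.89 ± 0.67 over 6 libraries (edgeR FDR = 0.320) and 2.60 ± 0.63 over 5 (0.0190). Its level was low in every library, so the fold rests on few control reads.

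FAT3 (chr11:91957984-92629639), which shapes dendrites of retinal neurons, was also low, at 0.852, 1.03 and 0.884 CPM in the controls and 1.59, 1.56 and 2.40 CPM after pre-treatment. The groups did not overlap, and control replicate 3 lay with the other controls. The log2FC was 1.03 ± 0.32 over 6 libraries (edgeR FDR = 0.322) and 1.05 ± 0.32 over 5 (0.0419). The call was lost with limma-voom (FDR = 0.0607), with library sizes alone (0.0952) and without any 1 of the 5 libraries (0.0690 to 0.164), and in 1 fit over both experiments the log2FC of 0.99 missed the fold threshold. FAT2 lost its call without control replicate 1, control replicate 2 or treated replicate 1 (FDR = 0.0557 to 0.0842), and PCDH10 without control replicate 1, treated replicate 1 or treated replicate 2 (0.0507 to 0.0668).

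CTNND1, which stabilises cadherins at the membrane, was at 315, 333 and 231 CPM in the controls and 198, 201 and 149 CPM after pre-treatment. All controls lay above all treated libraries. The log2FC was −0.65 ± 0.21 over 6 libraries (edgeR FDR = 0.324) and −0.76 ± 0.15 over 5 (0.00893), which passed the FDR but not the fold threshold. PCDH12 gave the same outcome, at −0.64 ± 0.34 over 6 libraries (edgeR FDR = 0.521) and −0.93 ± 0.19 over 5 (0.00996).

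The other catenins and the classical cadherins were not called over 5 libraries. CTNNA1 had a log2FC of 0.00 ± 0.15 over 5 libraries and −0.21 ± 0.22 over 6. CDH2 was at 229, 249 and 227 CPM in the controls and 263, 240 and 164 CPM in the treated libraries, with a log2FC of −0.03 over 5 and −0.05 over 6. CDH11 was at 197, 247 and 189 CPM in the controls and 140, 162 and 189 CPM in the treated libraries, where the highest treated library met the lowest control. Its log2FC was −0.34 ± 0.19 over 6 libraries (edgeR FDR = 0.535) and −0.37 ± 0.16 over 5 (0.111). PCDH17 (−0.17 ± 0.12 over 5 libraries), PCDH18 (0.34 ± 0.15), FAT1 (−0.60 ± 0.30) and CDH23 (−0.72 ± 0.28) were not called in either fit. CDH1 had 0, 5 and 3 reads in the controls and 7, 9 and 13 reads in the treated libraries, with a log2FC of 1.28 ± 0.98 over 6 libraries (edgeR FDR = 0.648).

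PCDH7 had 1 discordant library. The pre-treatment controls were at 35.0, 31.6 and 18.5 CPM, and the treated libraries at 28.4, 26.6 and 2.55 CPM. Treated replicate 3 was thus the lowest of all 12 libraries, in which the next lowest had 11.4 CPM. The log2FC was −0.53 ± 0.70 over 6 libraries (edgeR FDR = 0.790).

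**Figure D3:**
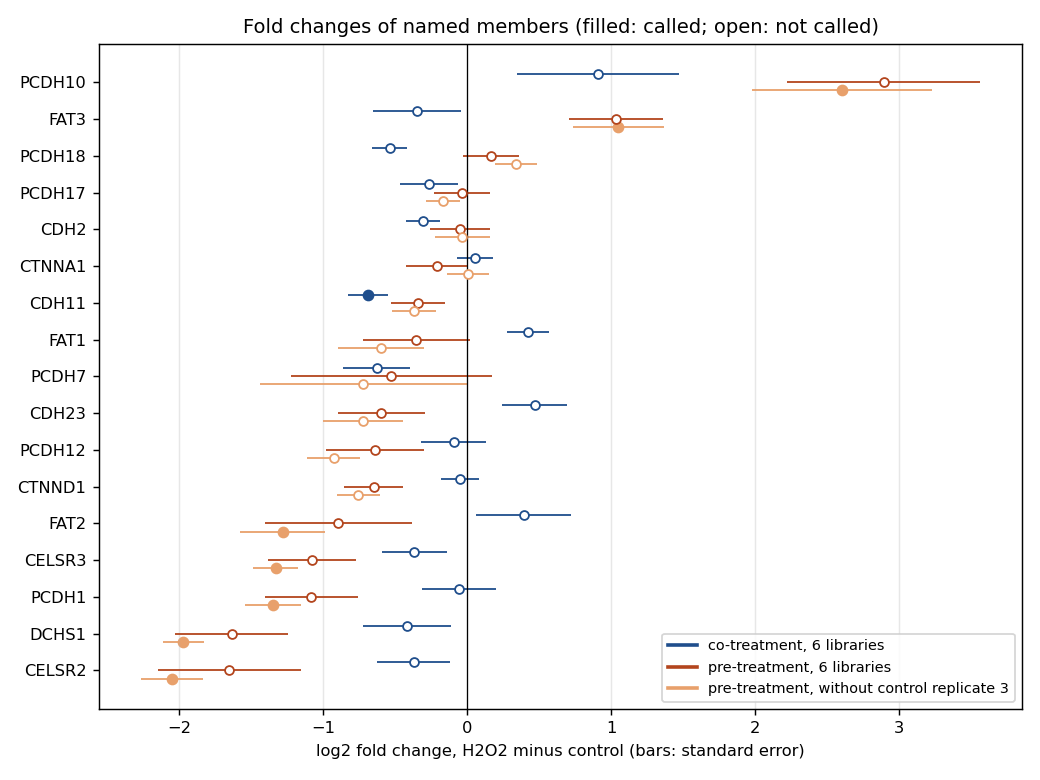
log2 fold change (H2O2 minus control) with its standard error for the named members that were tested in the co-treatment and in the pre-treatment over 6 and over 5 libraries, filled where called. Leaving out control replicate 3 moves CELSR2, DCHS1, PCDH1, CELSR3 and FAT2 further below 0 with shorter bars, while PCDH10 and FAT3 lie above 0 with or without it.

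Scaling affected the level of all genes together. With library sizes alone in place of TMM factors, the median log2FC of all genes in the 5-library comparison went from 0.01 to −0.21, and the calls went from 784 higher and 2168 lower to 399 higher and 3014 lower. CELSR2, CELSR3, DCHS1, FAT2, PCDH1 and PCDH10 were called under both scalings, in the same direction, while FAT3 was called with TMM only and PCDH12 with library sizes only.

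**Figure D4:**
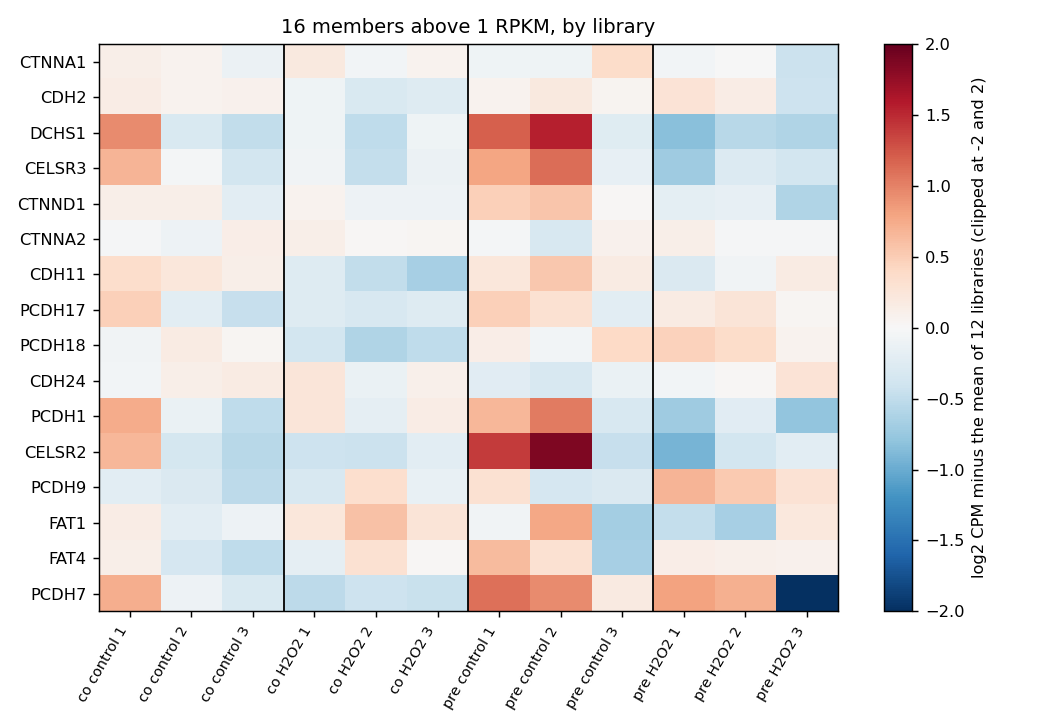
log2 CPM of the 16 members above 1 RPKM in the 12 libraries, each relative to the member's mean over all libraries, with colours clipped at −2 and 2. DCHS1, CELSR3, CELSR2 and PCDH1 are high in pre-treatment controls 1 and 2 and in co-treatment control 1, and PCDH7 is low in pre-treated library 3.

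A further fit asked whether the response to H2O2 differed between the experiments, with an interaction term, and a gene was called at an FDR under 0.05. Over all 12 libraries 0 of 31 members and 7 of 24407 genes (0.0287%) were called by edgeR. At an unadjusted p under 0.05 there were 7 members and 2183 genes, and DESeq2 and limma-voom also called 0. Over 11 libraries, without pre-treatment control replicate 3, 6 of 33 members were called, beside 8.02% of 25668 genes. The difference in log2FC (pre-treatment minus co-treatment) was −1.73 ± 0.40 for CELSR2 (edgeR FDR = 0.0208), −1.61 ± 0.42 for DCHS1 (0.0352), −1.73 ± 0.47 for FAT2 (0.0404), −1.35 ± 0.38 for PCDH1 (0.0453) and −0.76 ± 0.20 for CTNND1 (0.0379).

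In the opposite direction, PCDH18 differed by 0.82 ± 0.19 (edgeR FDR = 0.0224), being below its controls in the co-treatment and at 48.9, 43.1 and 58.8 CPM in the controls and 61.8, 57.4 and 47.1 CPM in the treated libraries of the pre-treatment. For CDH11, called in the co-treatment alone, the difference between the experiments did not pass the test (0.26 ± 0.22, edgeR FDR = 0.448). Its interval of 2 SE, from −0.17 to 0.70, still allows a difference as large as the co-treatment change. CELSR3 missed the threshold for a difference at −1.02 ± 0.33 (edgeR FDR = 0.0674).

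Proteins that work with cadherins were followed through lists of genes, whose counts over 5 pre-treatment libraries stand beside the 11.2% of all genes called there (8.23% lower and 2.98% higher). Of 17 junction partners of classical cadherins, 16 were found, with 14 tested in the co-treatment and 15 in the pre-treatment. None was called in the co-treatment or over 6 pre-treatment libraries. Over 5 libraries 2 of the 15 were called, near the share of all genes: JUP (plakoglobin, the beta-catenin relative of desmosomes) fell and PKP2 (a desmosomal plakophilin) rose. JUP was at 57.8, 84.3 and 44.5 CPM in the controls and 27.2, 31.0 and 29.7 CPM after pre-treatment, with a log2FC of −1.05 ± 0.23 over 6 libraries (edgeR FDR = 0.320) and −1.21 ± 0.16 over 5 (0.00266). PKP2 was at 2.77, 2.71 and 2.76 CPM in the controls and 5.81, 5.45 and 5.75 CPM in the treated libraries (log2FC = 1.07 ± 0.21 over 6, edgeR FDR = 0.310, and 1.12 ± 0.20 over 5, FDR = 0.00653). In both genes all 3 controls lay on one side of all treated libraries, control replicate 3 included. CTNNB1 (beta-catenin) was at 708 to 1112 CPM in the pre-treatment controls and 909 to 944 CPM in the treated libraries, with a log2FC of 0.42 ± 0.12 over 5 that did not reach the fold threshold.

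Of 18 planar cell polarity and Fat-Dachsous partners, 16 were tested in the co-treatment and 18 in the pre-treatment. None was called in the co-treatment or over 6 pre-treatment libraries. Over 5 libraries 2 of the 18 were called, again near the share of all genes. VANGL2, a core polarity protein that acts beside Celsr proteins, fell (−1.28 ± 0.12, edgeR FDR = 0.00098), and LIX1, a relative of the fly Fat-Dachsous regulator lowfat, rose (1.57 ± 0.38, FDR = 0.0185). VANGL2 was at 119, 144 and 57.9 CPM in the controls and 49.8, 55.7 and 49.0 CPM in the treated libraries, so its control replicate 3 again lay next to the treated libraries.

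Of 15 desmosomal cadherins and other relatives, 7 were tested in the pre-treatment and 3 were called over 5 libraries, all lower. These were CDHR2 (−2.25 ± 0.21, edgeR FDR = 0.00098) and CDHR5 (−1.91 ± 0.26, FDR = 0.00267), partners in the brush border of gut cells, and CLSTN1 (calsyntenin-1, −1.10 ± 0.11, FDR = 0.000996), a cargo adaptor in axons. CDHR2 had 12.7 and 13.8 CPM in control replicates 1 and 2 and 1.62 CPM in control replicate 3, below the treated 2.08 to 3.01 CPM. None of the 3 was called over 6 libraries. Of 9 transcriptional repressors of CDH1, 6 were tested, and all 10 cadherin-cleaving proteases were tested. None of these was called in any comparison. SNAI1, a repressor of CDH1, had a co-treatment log2FC of 0.87 ± 0.32 (edgeR FDR = 0.444), and TWIST1, which is linked to CDH2 and CDH11 in mesenchyme, one of −0.48 ± 0.12 (FDR = 0.124).

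Markers of other cell types were set beside these changes. The summed level of 8 mesenchymal or fibroblast markers was 174 to 252 CPM in co-treatment controls, 169 to 195 CPM in co-treated, 202 to 239 CPM in pre-treatment controls and 220 to 276 CPM in pre-treated libraries. COL3A1, a fibrillar collagen, rose in the pre-treatment over 6 libraries (log2FC = 2.44, edgeR FDR = 0.0442). Over 5 libraries COL3A1, DCN and KRT18 were called higher and GATA3, DBH and CD14 lower, and no marker was called in the co-treatment. The part of these cell types in the members' values was not tested. Sums of 7 epithelial markers were 7.98 to 17.8 CPM, of 6 Schwann or glial markers 6.57 to 9.02 CPM, of 5 endothelial markers 1.04 to 2.09 CPM and of 6 immune markers 0.526 to 1.92 CPM. Within these lists EPCAM was at 0.604 to 1.94 CPM, KRT18 at 0.394 to 9.72 CPM, CLDN4 at 3.66 to 6.44 CPM, CLDN5 at 0.626 to 1.60 CPM and CD14 at 0.213 to 1.49 CPM, while ESRP1, TIE1 and CD3E stayed under 0.07 CPM in every library.

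Of the 5 members called lower over 5 pre-treatment libraries, 4 held 58% or more G and C, as did 9 of the 34 members tested. The longest transcripts of DCHS1, CELSR3, CELSR2 and PCDH1 held 61.9%, 61.4%, 61.3% and 60.1% G and C, whereas those of PCDH10, FAT3 and CDH11 held 41.9%, 45.5% and 42.9%. Across the members tested, Pearson's r between G and C content and log2FC was −0.46 (Spearman's rho = −0.43, 34 members) over 5 pre-treatment libraries, −0.43 (rho = −0.36, 33 members) over 6 and −0.04 (rho = −0.10, 28 members) in the co-treatment. These are descriptions across genes that share the same libraries, and genes are not independent replicates. The same correlations were not computed over all genes, so whether they are particular to the members is not known. Of the 9 members with 58% or more G and C, 7 were lower over 5 pre-treatment libraries and 5 over 6. In the co-treatment 4 of 8 were lower. CDH24, with 64.2% G and C, was higher, with a log2FC of 0.43 over 5 libraries and 0.33 over 6.

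**Figure D5:**
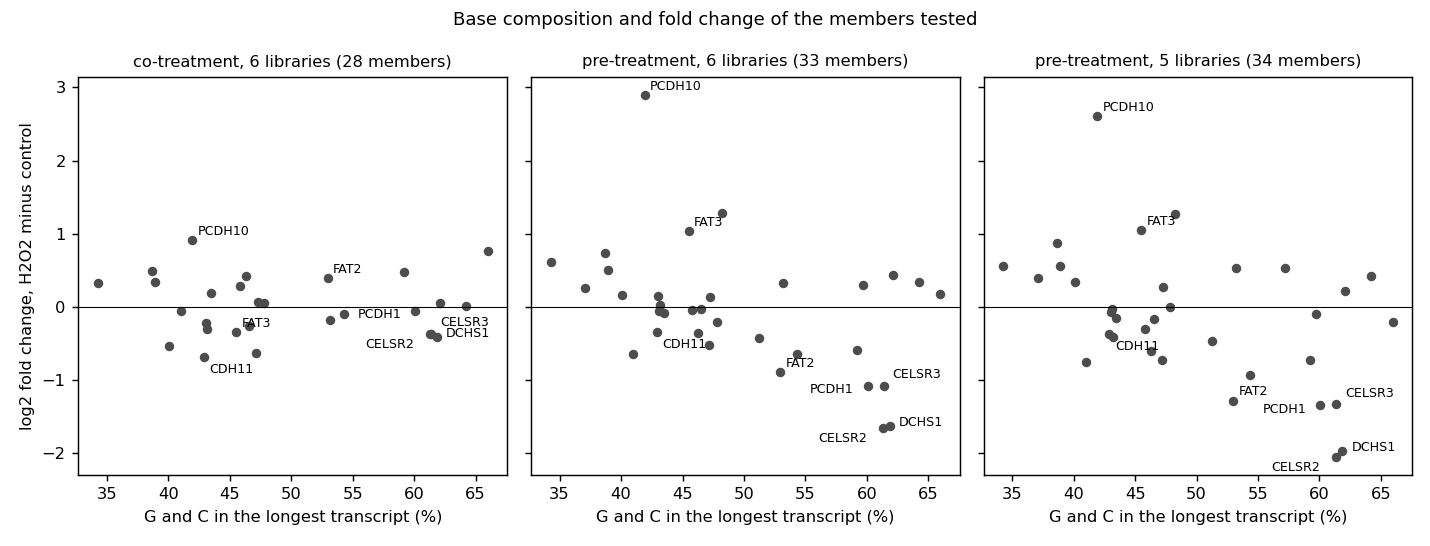
Percent G and C in the longest transcript against log2 fold change (H2O2 minus control), 1 point per member tested, for the co-treatment and the pre-treatment over 6 and over 5 libraries. In both pre-treatment panels DCHS1, CELSR2, CELSR3 and PCDH1 lie together at the lower right, and in the co-treatment panel they lie between −0.42 and −0.06.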

How the data were processed

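RNA was sequenced after ribosomal depletion in 12 libraries of SH-SY5Y cells, 3 per group. According to the authors, reads were checked with FastQC 0.11.8, cleaned by cutadapt 2.10, aligned by HISAT2 2.1.0 on the hg19 build and summed for each symbol by HTSeq 0.7.2. The deposited values are raw counts, with closing entries for reads outside genes (0.200 to 0.830 per gene read) that were kept out of library sizes and tests. The annotation version and strand setting are not given in the sources used here. Depositors' tables of fold changes and p-values were not used.

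The main test was the quasi-likelihood test of edgeR 4.0.16 (TMM factors, R 4.3.3), with limma 3.58.1 and DESeq2 1.42.0 as alternatives. FDR is the Benjamini-Hochberg adjusted p over all genes tested. Genes entered a fit when their CPM reached that of 5 reads in the smallest library in as many libraries as the smaller group held. Calls needed an FDR under 0.05 and an absolute log2FC over 0.6 (co-treatment) or 1 (pre-treatment), or the FDR alone for the difference between experiments. SE is the absolute log2FC over the square root of F. Printed CPM share TMM factors over 12 libraries, and RPKM divides them by the union of exons in GENCODE v44 lifted to hg19. Scripts were tested on simulated data. Python 3.11.15 with pandas 2.3.3 and matplotlib 3.10.9 was used for tables and figures.

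Members, lists and the comparisons without pre-treatment control replicate 3 were chosen with earlier results of these data known. Members were named when called in any fit, among the 5 smallest p in a fit, highest in their subfamily, or textbook cases (CDH1, CDH2, CDH11, CTNND1). From each list of partners, called genes and those with the smallest p were eligible for naming. The alternatives were other tests, scalings and filters, no fold threshold, a replicate block, 1 fit over both experiments and leaving out each library.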

Additional observations from a re-analysis of the deposited data

Results flagged for a closer look

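For 6 of the 33 members tested the response differed between the experiments by edgeR's interaction test over 11 libraries, beside 2058 of 25668 genes (8.02%), and each value below is the pre-treatment log2FC minus the co-treatment log2FC. It was −1.73 for CELSR2, −1.61 for DCHS1, −1.73 for FAT2, −1.35 for PCDH1, −0.76 for CTNND1 and 0.82 for PCDH18. Over all 12 libraries edgeR called 0 of 31 members, with 7 at an unadjusted p under 0.05, as had 2183 of 24407 genes. The 6 calls therefore rest on leaving out pre-treatment control replicate 3. The count ranged from 0 to 11 when each of the other 11 libraries was left out in turn.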

How the results depend on the processing

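In the co-treatment, 1 member was called, with 0 under library size alone or 1 fit over both experiments, 2 without a filter on low counts, and 0 to 1 with 1 library left out. The genes called there were 132, with 307 by the exact test, 308 by DESeq2, 80 under library size alone, 443 without the filter, 3 in 1 fit over both experiments and 18 to 218 with 1 library left out. Over 6 pre-treatment libraries, 0 members were called, with 2 by the exact test, 5 by DESeq2, 2 without the filter and 0 to 7 with 1 library left out. The genes called there were 6, with 231, 501, 300 and 61 by the exact test, by DESeq2, without the filter and in 1 fit over both experiments, 1 under library size alone, 0 by limma-voom, 0 with the replicate block and 0 to 2952 with 1 library left out. Over 5 libraries, 7 members were called (4 to 6 with 1 more left out), and 2952 genes (6871 with no threshold on the fold, 1064 to 3540 with 1 more left out). For the difference between experiments, 0 members were called over 12 libraries (0 to 6 with 1 left out) and 6 over 11 (11 by DESeq2, 0 to 11 with 1 left out). Under library size alone, 28.8% of co-treatment calls were lower, against 43.9% with TMM, 88.3% of 5-library calls, against 73.4%, and 84.4% of calls of a difference over 11 libraries, against 58.6%.

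Small log2FC changed sign. In the co-treatment with 1 library left out, the ranges were −0.59 to 0.10 for CELSR2, −0.67 to 0.18 for DCHS1, −0.0157 to 0.11 for CTNNA1, −0.15 to 0.0025 for CTNND1, −0.22 to 0.0797 for PCDH12, −0.45 to 0.0584 for PCDH17 and −0.29 to 0.385 for PCDH1, which was 0.0047 with limma-voom and 0.0332 with the replicate block. Over 6 pre-treatment libraries they were −0.18 to 0.12 for CDH2, −0.30 to 0.0031 for CTNNA1, −0.67 to 0.10 for FAT1 and −0.17 to 0.10 for PCDH17. Over 5 they were −0.18 to 0.11 for CDH2, which was 0.14 with the replicate block, and −0.0721 to 0.0907 for CTNNA1, which was −0.0165 by DESeq2 and −0.0165 with RLE factors, −0.22 under library size alone, −0.0092 with limma-voom, −0.0050 with filterByExpr, −0.0265 without the filter and −0.0542 in 1 fit over both experiments. The cause was not tested. Under all alternatives, 868 values of single genes kept their direction and side of the threshold. A call was lost in 63 and gained in 24, and 28 values changed sign. Same-numbered libraries did not deviate together (correlations of −0.279 to 0.0695), so the numbers were not taken as pairs, and with the block 1, 0 and 6 members were called in the co-treatment and over 6 and 5 pre-treatment libraries, where FAT3 lost its call (log2FC = 0.82, edgeR FDR = 0.0521).

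Of the 49 members, 18 had under 20 reads in every library, so their levels rest on few reads.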
